A study of Mus musculus with 4 samples.

Results

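The genes described here are 4 squamous and cornified envelope genes of the mouse, Sprr2a1, Sprr2a3, Dmkn and Krt4, taken by symbol from the 2701 genes of the authors' table of differences between Lats1/2 KO and WT pyloric stomach. That table holds only genes with an adjusted p of at most 0.05, so the genes were selected on the same counts that are described here, and their values are given as a description with no test. Lats1/2 KO denotes C57BL/6 mice with floxed alleles of both Hippo kinase genes, Lats1 and Lats2, and the tamoxifen-inducible Lgr5-CreER (2 libraries). WT denotes C57BL/6 mice that carry the same floxed alleles and no Cre (2 libraries). Both were collected 8 weeks after tamoxifen. Recombination starts in Lgr5-positive cells of the gland base and passes to their progeny, whereas the RNA came from 10 µm frozen sections that hold every cell type of the pylorus, so each value mixes recombined cells with all others. In such sections fewer cells of a type and less RNA per cell cannot be told apart.

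In stratified squamous epithelia, dying surface cells replace their membrane with the cornified envelope, a protein shell that transglutaminases crosslink. Small proline-rich (SPRR) proteins are flexible bridges in that shell, and SPRR2A is also made by simple epithelia of the gut and other organs, where it is known as a stress- and microbe-responsive protein. Dermokine, the product of Dmkn, is secreted by keratinocytes of the upper epidermis. KRT4 is a type II keratin of the suprabasal cells of mucosal squamous epithelia such as the oesophagus. The mouse forestomach is lined by squamous epithelium, and the pylorus by a glandular mucosa of simple epithelium.

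Sprr2a1 (ENSMUSG00000078664; chr3:92215799-92221911, plus strand, GRCm38) and Sprr2a3 (ENSMUSG00000074445; chr3:92285417-92291405, plus strand) lie in the small proline-rich cluster of chromosome 3 with a near-identical neighbour, Sprr2a2 (ENSMUSG00000068893), which is not among the 4 genes but bears on how their counts can be read. Bases shared between copies reach into the promoters, which is why these are shown. The 250 bases before the RefSeq starts (GRCm38.p6) of Sprr2a1 (chr3:92215585-92215834, plus strand) and Sprr2a3 (chr3:92285054-92285303, plus strand) hold a common run of 222 bases in lower case, and the 28 capitals in each mark bases outside that run.
Sprr2a1: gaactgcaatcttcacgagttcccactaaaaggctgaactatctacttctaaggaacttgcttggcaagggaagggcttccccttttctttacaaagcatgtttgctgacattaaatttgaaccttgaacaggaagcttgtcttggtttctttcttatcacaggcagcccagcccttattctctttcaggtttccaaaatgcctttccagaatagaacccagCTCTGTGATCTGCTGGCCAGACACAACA
Sprr2a3: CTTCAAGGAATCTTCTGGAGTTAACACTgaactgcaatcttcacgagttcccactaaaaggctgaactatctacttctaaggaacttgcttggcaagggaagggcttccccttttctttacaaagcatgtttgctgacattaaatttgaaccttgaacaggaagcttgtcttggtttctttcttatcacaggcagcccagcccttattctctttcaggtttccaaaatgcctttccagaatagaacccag
The run begins at the first base of the Sprr2a1 window and ends at the last base of the Sprr2a3 window, so the capitals come from starts annotated 28 bases apart along the common sequence and are not shown to be differences between the copies. The same stretch before Sprr2a2 equals that of Sprr2a1 over all 250 bases.

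The Dmkn promoters are shown because the gene has separate RefSeq starts with a common element. In the 250 bases before the upstream start (chr7:30763506-30763755, plus strand) and before an internal start (chr7:30776155-30776404, plus strand), capitals mark the match to the AP-1 motif TGANTCA.
Dmkn upstream: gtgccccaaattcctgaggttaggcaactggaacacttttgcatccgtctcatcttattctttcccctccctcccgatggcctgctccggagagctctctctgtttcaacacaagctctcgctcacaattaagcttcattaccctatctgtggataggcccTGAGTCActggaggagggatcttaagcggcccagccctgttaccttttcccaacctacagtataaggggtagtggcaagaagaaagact
Dmkn internal: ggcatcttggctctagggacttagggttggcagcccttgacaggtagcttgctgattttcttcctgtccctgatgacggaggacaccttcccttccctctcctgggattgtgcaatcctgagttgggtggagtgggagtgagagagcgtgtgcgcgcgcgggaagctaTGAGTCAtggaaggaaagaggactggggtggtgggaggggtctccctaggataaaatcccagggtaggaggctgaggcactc
Each window holds 1 match, from -89 to -83 relative to the upstream start and from -82 to -76 relative to the internal one. AP-1 is the dimer of Jun and Fos proteins that binds many genes of squamous differentiation. Over windows of 300 bases (250 before to 50 after the start, both strands), 7.79% of 32544 distinct RefSeq promoters hold this motif. Of the 14 small proline-rich genes with a window, 9 hold it, but none of the Sprr2a windows does. The RefSeq starts of Sprr2a1 and Sprr2a3 differ from the gene starts given above, so where these windows should lie is not settled. The TEAD motif GGAATG, the site of the DNA-binding partners of YAP, is in none of the Dmkn, Sprr2a1, Sprr2a2 and Sprr2a3 windows, against 14.6% of all. A match to the STAT motif TTCNNNGAA (8.33% of all) stands in the capitals of Sprr2a3, from -249 to -241, so the windows of the other copies do not reach it. The interferon-stimulated response element (3.45% of all) is in no small proline-rich or Dmkn window. The TATA motif TATAAA (13.6% of all) is in 10 of the 14 small proline-rich windows and in no Sprr2a window. The KLF motif CACCC (57.7% of all) is in 7 of the 14, Sprr2a1 and Sprr2a2 among them, and in the internal Dmkn window. In Sprr2a1 and Sprr2a2 the match lies after the start, from 38 to 42. The Sprr2a3 window does not reach that place, since its start is annotated 28 bases earlier along the common sequence. These matches describe letters in a window and were not tied to binding.

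Levels are given as normalized counts, which are deposited read counts divided by each library's size factor. Listed genes held 13413629 and 14225132 counts in the Lats1/2 KO libraries and 14315314 and 17689207 in the WT libraries, which is not the depth of the whole libraries. Lats1 was lower in both Lats1/2 KO libraries, at 1036 ± 132 normalized counts against 2063 ± 125 in WT (SD, n = 2), in the direction of the labels, and Lats2 has no row. Nothing in the labels says whether libraries of a group come from separate mice, so the spread between them may be technical in part. All 4 squamous genes have a row because they were taken from the listed genes. Of an inferred 13140 tested genes, 20.6% have a row (8.81% higher and 11.7% lower in Lats1/2 KO). The Sprr2a genes were lower in Lats1/2 KO, and Dmkn and Krt4 were higher.

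**Figure D1:**
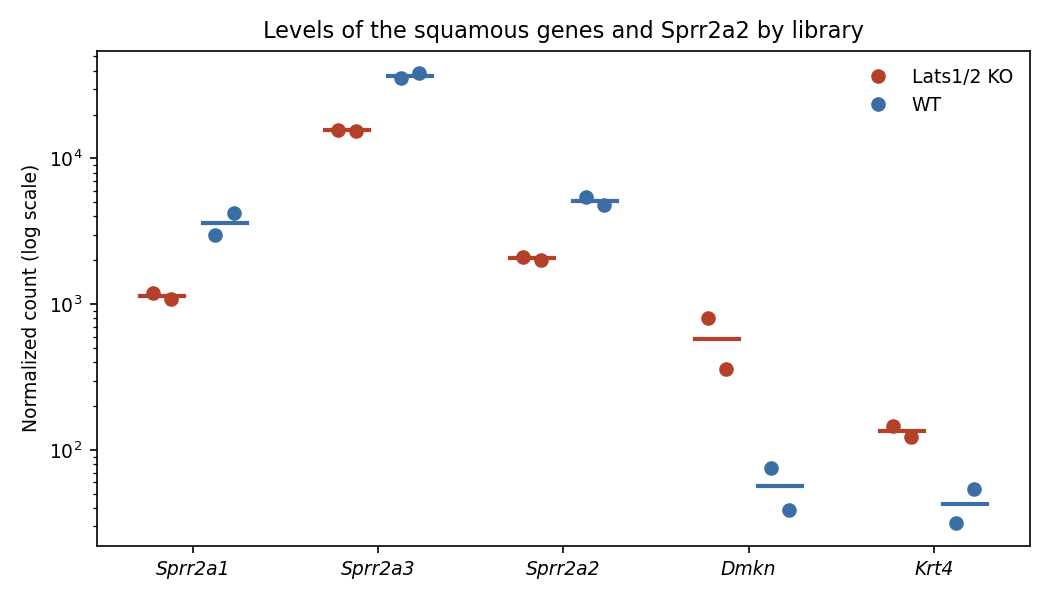
Normalized counts per library (log axis) of Sprr2a1, Sprr2a3, Sprr2a2, Dmkn and Krt4, with Lats1/2 KO in red and WT in blue; points are libraries and bars are means of 2. The Sprr2a copies lie lower in both Lats1/2 KO libraries, and Dmkn (804.0 and 359.5) and Krt4 (146.7 and 123.5) lie above both WT libraries.

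Sprr2a3 had the most counts of the 4, though its level against Sprr2a1 carries the doubt between copies described below. It had 15761 and 15318 normalized counts in the Lats1/2 KO libraries, against 35632 and 38364 in the WT libraries. The groups did not overlap, as for 99.9% of all listed genes, and the lowest WT library was 2.26 times the highest Lats1/2 KO library. The means were 15539 ± 313 in Lats1/2 KO and 36998 ± 1932 in WT (SD, n = 2), and the log2 fold change was -1.25 ± 0.13 (SE), or 2.38-fold lower. The authors' deposited table gives -1.23 with an adjusted p of 1.96e-16, the eighth smallest p of the 2701 genes.

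Sprr2a1 moved the same way with fewer counts. It had 1199 and 1094 normalized counts in the Lats1/2 KO libraries and 2986 and 4232 in the WT libraries. The WT libraries were further apart, by 1.42 times, than the Lats1/2 KO libraries, by 1.10 times. Its means of 1146 ± 73.9 in Lats1/2 KO and 3609 ± 881 in WT (SD, n = 2) gave a log2 fold change of -1.65 ± 0.21 (SE), 3.15-fold lower, and the authors' deposited table gives -1.56 with an adjusted p of 8.67e-10. Sprr2a2, the copy between them, had 2115 and 2025 in the Lats1/2 KO libraries, against 5444 and 4812 in WT, with a log2 fold change of -1.31 ± 0.13 (SE).

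How far the copies can be separated was measured on the annotated transcripts (GENCODE M21), since reads were 75 bases from each end. The coding sequence is 249 bases in each copy, with 0 differences between Sprr2a1 and Sprr2a2 and 3 between either of them and Sprr2a3. Aligned over the long transcripts, Sprr2a1 and Sprr2a2 differ at 2 bases outside gaps (99.93% identity), and Sprr2a1 and Sprr2a3 differ at 31 (98.92%). Of the 2929 distinct stretches of 75 bases in Sprr2a1, 94.3% occur in a transcript of another gene, and 90.7% occur in Sprr2a2. Sprr2a3 is better resolved, with 47.5% of 2808 stretches found elsewhere. Dmkn and Krt4 have no such stretch in common with any other annotated transcript, so this doubt does not touch them.

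For Sprr2a1, 168 stretches remain that are in no other transcript, 93 of them starting in exon 1 and 75 in exon 2. Of these, 12 occur in the promoter window of Sprr2a2 or Sprr2a3, so they are not unique in the genome. The annotation adds a further overlap, because a transcript of Sprr2a2 begins with an exon of 43 bases that lies inside exon 1 of Sprr2a1 (164 bases) on the same strand. The values of Sprr2a1 and Sprr2a2 are therefore uncertain as to copy, and those of Sprr2a3 are so to a lesser degree. How reads with more than 1 placement were counted is not given in the sources used here.

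Counts of the copies were divided in much the same way in every library. Sprr2a3 took 82.6% and 83.1% of the counts of the 3 copies in the Lats1/2 KO libraries and 80.9% in each WT library. Sprr2a2 took 11.1% or just below in both Lats1/2 KO libraries, and 12.4% and 10.2% in the WT libraries. Sprr2a1 took 6.28% (5.96 to 6.62) and 5.93% (5.64 to 6.24) in Lats1/2 KO, against 6.78% (6.51 to 7.04) and 8.93% (8.66 to 9.20) in WT (exact binomial 95% intervals, which cover counting error only). The share of Sprr2a1 in WT 2 stood above the intervals of the other 3 libraries. Of the 1793 stretches found in the annotated transcripts of 1 copy only, 82.3% belong to Sprr2a3, 8.37% to Sprr2a2 and 9.37% to Sprr2a1, near the division of the counts. Whether that resemblance sets the counts was not tested.

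**Figure D2:**
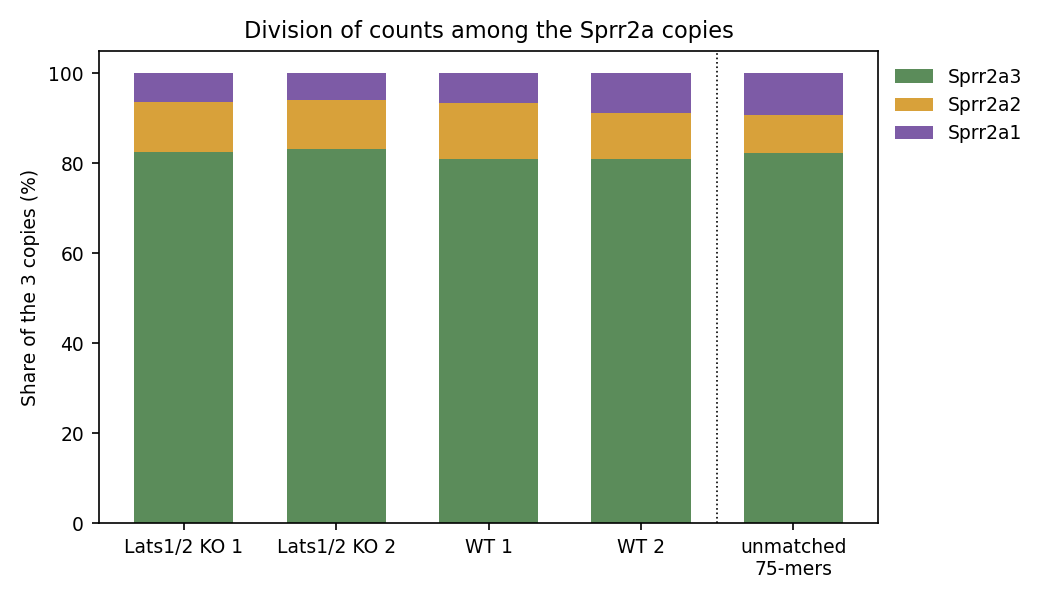
Stacked bars give each copy's share (%) of the counts of Sprr2a1, Sprr2a2 and Sprr2a3 in each library. The bar right of the dotted line gives its share of the 75-base stretches found in the annotated transcripts of 1 copy only. Sprr2a3 holds 80.9% to 83.1% of counts in the 4 libraries and 82.3% of the stretches.

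Summed over the 3 copies, the level does not depend on how the counted reads were divided between them. Whether reads placed in more than 1 copy were counted is not known, so the sum may leave them out. The sum was 19074 and 18437 normalized counts in the Lats1/2 KO libraries and 44062 and 47408 in the WT libraries. The means were 18756 ± 450 in Lats1/2 KO and 45735 ± 2366 in WT (SD, n = 2), and the log2 fold change was -1.29 ± 0.14 (SE). The summed value lay close to that of Sprr2a3 alone, which makes up 80.9% to 83.1% of the counts, and above that of Sprr2a1. Of the 15 small proline-rich genes on chromosome 3, the 3 Sprr2a copies have rows (20.0% of those annotated, beside 20.6% of all tested genes). All 3 were lower, as were 57.1% of all listed genes, and their counts are uncertain as to copy. The other 12 have no rows and were not analysed here.

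Dmkn (ENSMUSG00000060962; chr7:30763756-30781063, plus strand) had the largest difference of the 4. It had 804.0 and 359.5 normalized counts in the Lats1/2 KO libraries (888 and 460 reads), against 75.7 and 38.6 in the WT libraries (60 and 35 reads). Both groups spread widely, by 2.24 times in Lats1/2 KO and 1.96 times in WT. They did not overlap, as for 99.9% of all listed genes, and the lower Lats1/2 KO library was 4.75 times the higher WT library. On the normalized scale, the exact Poisson 95% intervals were 752.0 to 858.7 and 327.4 to 393.9 in the Lats1/2 KO libraries, and 57.8 to 97.5 and 26.9 to 53.7 in the WT libraries. These intervals, which cover counting error only, did not overlap within either group.

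The means of Dmkn were 581.8 ± 314 in Lats1/2 KO and 57.2 ± 26.2 in WT (SD, n = 2), and the log2 fold change was 3.35 ± 0.54 (SE), or 10.2-fold. By that value it ranked 24 from the top among 2701 listed genes. The authors' deposited table, whose log2 fold changes lie nearer 0 for all 4 genes, gives 2.56 with an adjusted p of 3.11e-08. The log2 value was 2.66 without Lats1/2 KO replicate 1 and 3.91 without WT replicate 1, so 1 library moved the fold by more than 1.5 times. Sbsn and Krtdap, the suprabasin and keratinocyte differentiation-associated protein genes that flank Dmkn and are known as markers of differentiating keratinocytes, have no rows.

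Krt4 (ENSMUSG00000059668; chr15:101918535-101924735, minus strand) had the fewest reads of the 4 in both Lats1/2 KO libraries. It had 146.7 and 123.5 normalized counts in the Lats1/2 KO libraries (162 and 158 reads), against 31.6 and 54.0 in the WT libraries (25 and 49 reads). The groups did not overlap, as for 99.9% of all listed genes, and the lower Lats1/2 KO library was 2.29 times the higher WT library. With so few reads the exact Poisson 95% intervals of the reads are wide, from 138.0 to 189.0 in Lats1/2 KO 1 and from 36.3 to 64.8 in WT 2. The means were 135.1 ± 16.4 in Lats1/2 KO and 42.8 ± 15.9 in WT (SD, n = 2), and the log2 fold change was 1.65 ± 0.43 (SE), or 3.14-fold. The authors' deposited table gives 1.29 with an adjusted p of 0.00917, well down the list at rank 1592 by p.

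The nearest keratin genes with rows went the other way. Krt79 begins 4.6 kb beyond Krt4, and Krt78 5.68 kb beyond Krt79; both encode type II keratins. Krt79 had 410.2 and 351.7 normalized counts in the Lats1/2 KO libraries, against 973.0 and 1395 in WT, a log2 fold change of -1.64 ± 0.24 (SE). Krt78 had 527.9 and 645.6 in the Lats1/2 KO libraries, against 1466 and 2054 in WT, or -1.58 ± 0.23. Of 26 keratin genes on chromosome 15, 4 have rows, where 20.6% of all tested genes do, and Krt4 is the 1 that rose. The fourth, Krt8 of simple epithelia, had a log2 fold change of -0.60.

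**Figure D3:**
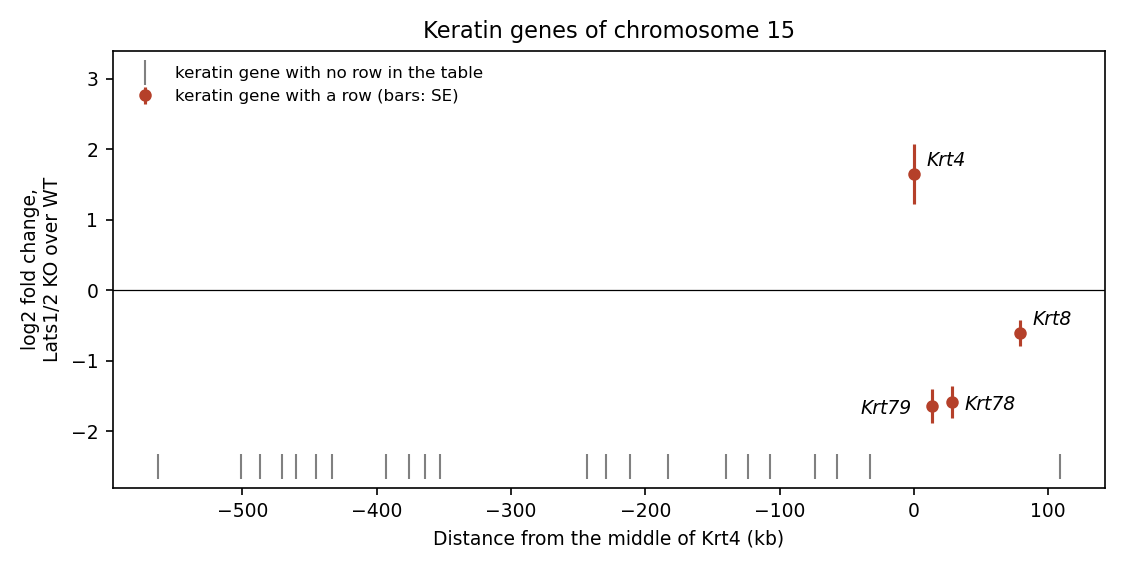
Log2 fold change of Lats1/2 KO over WT against distance from the middle of Krt4 (kb) for keratin genes of chromosome 15; bars are SE, and grey ticks at the foot mark keratin genes with no row, whose height has no meaning. Krt4 lies at 1.65, and its neighbours Krt79 and Krt78 lie at -1.64 and -1.58.

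Per kilobase of annotated exon, the order of the levels in WT was Sprr2a3 (12359 and 13307 normalized counts per kb), Sprr2a1 (994.3 and 1409), Dmkn (34.5 and 17.6) and Krt4 (14.8 and 25.3). The WT ranges of Dmkn and Krt4 overlap, so their order in WT is not settled. In Lats1/2 KO, Sprr2a3 stood at 5467 and 5313 per kb, Sprr2a1 at 399.2 and 364.4, Dmkn at 366.8 and 164.0 and Krt4 at 68.8 and 57.9. There the range of Sprr2a1 overlaps that of Dmkn. The Sprr2a levels carry the doubt between copies, which dividing by exon length does not remove.

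Genes with the most similar profile over the 4 libraries were found among 2465 listed protein-coding genes with a base mean of at least 100, by the root mean square difference of log2(normalized count + 1) after centring. For Sprr2a1 these were Krt79 (0.034), the monocarboxylate transporter family gene Slc16a5 (0.037) and Irf9, the DNA-binding subunit of the interferon-activated factor ISGF3 (0.054). For Sprr2a3 they were the peroxisomal membrane protein gene Pxmp4 (0.040), Entpd5, an enzyme of the endoplasmic reticulum that hydrolyses nucleotides (0.042), and the progestin receptor family gene Paqr7 (0.057). Krt4 was nearest to Cdc45 of the replicative helicase (0.034), the recombination factor gene Rad51ap1 (0.046) and Zwilch of the kinetochore (0.066). Dmkn had no close match, the nearest being the transcription factor gene Nfe2l3 (0.34), the pentraxin gene Nptx2 (0.37) and the collagen gene Col9a3 (0.37). With 4 libraries in 2 groups, many genes share a profile, and these values are a description.

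Among 136 other squamous and related genes in 9 lists, 31 have rows, 5 higher and 26 lower, and the rest were not analysed here. The share with rows was 22.8% of the 136, beside 20.6% of all tested genes. How many of the 136 were tested is not known, so these shares have unlike denominators. Their median log2 fold change was -0.70, against -0.50 over all listed genes, of which 57.1% were lower. On the TMM scale, which shifts log2 fold changes up by 0.36, all 31 kept their direction. There edgeR's quasi-likelihood test with Benjamini-Hochberg adjustment called 5 higher and 11 lower. Over all listed genes it called 1651, with 1157 higher and 494 lower, where the authors' calls were 1158 higher and 1543 lower. Losing a call at this scaling was therefore common among lower genes. All were selected on the same counts, so these calls are a description.

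Among 24 other cornified envelope genes, 2 rose and 1 fell, so 12.5% have rows, beside 20.6% of all tested genes. Scel, which encodes the envelope precursor sciellin, had 57.0 and 64.1 normalized counts in the Lats1/2 KO libraries, against 8.83 and 12.1 in WT, a log2 fold change of 2.51 ± 0.52 (SE). Ppl, which encodes the plakin periplakin of the envelope's scaffold, had 823.0 and 1648 in Lats1/2 KO and 330.6 and 334.2 in WT, or 1.89 ± 0.35, which was 1.31 without Lats1/2 KO replicate 2. Its partner envoplakin, from Evpl, fell to 3247 ± 475 in Lats1/2 KO, against 5779 ± 276 in WT (SD, n = 2).

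Of 22 enzymes of crosslinking, the lipid barrier and desquamation, 4 have rows (18.2%, beside 20.6% of all tested genes). All 4 were lower, as were 57.1% of all listed genes. Acer1, the alkaline ceramidase of epidermis, had 200.1 and 114.1 normalized counts in the Lats1/2 KO libraries, against 880.8 and 1333 in WT, a log2 fold change of -2.82 ± 0.37 (SE). Cyp4f39, which hydroxylates very long fatty acids for skin ceramides, the transglutaminase gene Tgm5 and St14, which encodes the protease matriptase, had log2 fold changes of -1.34, -1.19 and -0.62. After TMM scaling, Tgm5 and St14 did not pass edgeR's test (adjusted p = 0.0977 and 0.217). That test called 494 genes lower, where 1543 are listed as lower.

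Of 15 desmosome genes, 1 rose and 4 fell (33.3% with rows), where 8.81% of all tested genes rose and 11.7% fell. Pkp1, a plaque protein of suprabasal squamous cells, had 149.4 and 132.9 normalized counts in the Lats1/2 KO libraries, against 49.2 and 39.7 in WT, a log2 fold change of 1.67 ± 0.37 (SE). Dsp, Dsg2, Dsc2 and Perp, desmosomal genes that simple epithelia also express, had log2 fold changes of -0.66, -0.52, -0.80 and -0.66. After TMM scaling none of these 4 passed edgeR's test, with adjusted p-values between 0.0740 and 0.230. Over all listed genes that test called 494 lower, where 1543 are listed as lower. Of 6 simple epithelial keratins, Krt20, Krt8 and Krt19 have rows, where 20.6% of all tested genes do. All 3 were lower, as were 57.1% of all listed genes, with log2 fold changes of -0.90, -0.60 and -0.53. Of these 3, Krt20 passed edgeR's test after TMM scaling.

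Transcription factors of squamous differentiation had 8 of 24 members with rows (33.3%, beside 20.6% of all tested genes), 2 higher and 6 lower, where 57.1% of all listed genes were lower. Zfp750, a regulator of late epidermal differentiation, had 211.0 and 395.5 normalized counts in the Lats1/2 KO libraries, against 156.5 and 62.9 in WT. Its log2 fold change of 1.47 ± 0.54 (SE) was 0.95 without Lats1/2 KO replicate 2 and 2.27 without WT replicate 1. Klf5, a factor of proliferating epithelia, rose by 0.65. Ovol1 fell to 661.2 ± 91.8 in Lats1/2 KO, against 1816 ± 467 in WT (SD, n = 2), and its paralogue Ovol2 had a log2 fold change of -0.90. Prdm1, Klf4, Elf3 and Grhl1, factors of epithelial maturation, had values of -1.07, -0.78, -0.70 and -0.66. Ovol2, Prdm1, Klf4 and Grhl1 did not pass edgeR's test after TMM scaling (adjusted p from 0.0838 to 0.218), which called 494 of all listed genes lower, where 1543 are listed so. Trp63, the master factor of squamous identity, has no row.

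**Figure D4:**
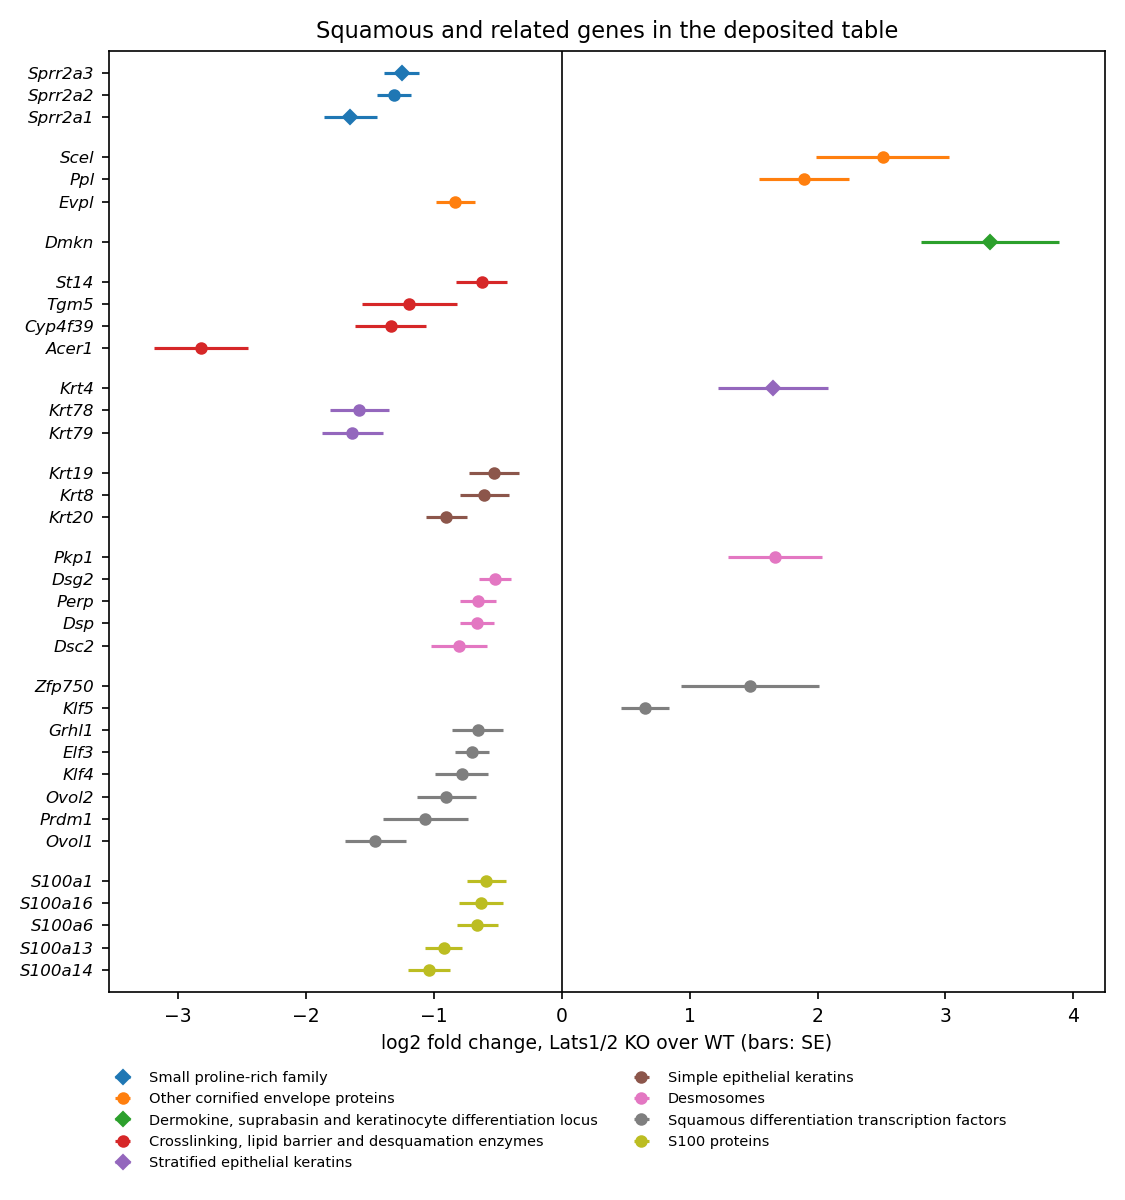
Log2 fold change of Lats1/2 KO over WT with SE for every squamous or related gene with a row, coloured by list; diamonds are Sprr2a1, Sprr2a3, Dmkn and Krt4. Dmkn (3.35), Scel (2.51), Ppl (1.89), Pkp1 (1.67), Krt4 (1.65), Zfp750 (1.47) and Klf5 (0.65) lie right of 0, and 28 genes lie left of it.

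Markers of other cells were counted beside these values. Of 17 markers of stratified squamous epithelium, among them Krt5, Krt14, Krt13, Trp63, Ivl and Lor, 0 have rows, where 20.6% of all tested genes do. Forestomach tissue in the sections could therefore not be measured, and its part in the higher Dmkn and Krt4 was not tested. Of 10 gastric surface mucous markers, 9 have rows (90.0%, beside 20.6% of all tested genes). All 9 were lower, as were 57.1% of all listed genes. Their median log2 fold change was -0.91. The median over all listed genes, -0.50, includes higher genes, so the medians are of unlike sets. Muc5ac, Vsig1 and Ctse did not pass edgeR's test after TMM scaling (adjusted p = 0.197, 0.139 and 0.0910). At that scaling 494 genes were called lower, where 1543 are listed as lower. The summed level of the 9 was 2639366 and 2182689 normalized counts in the Lats1/2 KO libraries and 4825871 and 5134952 in the WT libraries. Of 7 enterocyte markers, Vil1 and Fabp2 have rows (28.6%, beside 20.6% of all tested genes). Their summed levels were 13557 and 9865 in Lats1/2 KO and 24177 and 42441 in WT. The part of these cells in the lower Sprr2a counts was not tested. No marker of gland mucous cells (5), smooth muscle (5) or immune cells (7) has a row, where 20.6% of all tested genes do.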

How the data were processed

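TopHat2 2.1.1, HTSeq and DESeq2 with build GRCm38 are named in the submitters' processing notes; the sources used here do not give their settings. Counts in the deposited table are whole numbers of reads for each gene in each library. Per the file headers it also holds the authors' base mean (a signal, the mean normalized count), log2 fold change with its standard error, Wald statistic (a score), p-value and adjusted p-value. It holds 2701 genes at an adjusted p of at most 0.05, and genes beyond it were not analysed here. The number tested, 13140, was inferred from the p and adjusted p-values (quartiles 13129 and 13153). Shares with rows in a list or locus are over all its genes, tested or not. The 20.6% set beside them is over tested genes only.

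Size factors were recovered from base means and counts (1.10 and 1.28 for Lats1/2 KO 1 and 2, 0.792 and 0.907 for WT 1 and 2; rebuilt base means deviated by at most 0.0119%). Log2 fold changes are from edgeR 4.0.16 on these factors, and TMM on a table of called genes would shift them. Each SE is the absolute log2 fold change divided by the square root of edgeR's quasi-likelihood F statistic. The spread behind it was estimated with the listed genes only, which were selected by the authors' test. Symbols and gene positions are from GENCODE M21 (2698 of 2701 IDs matched), and promoters from RefSeq GRCm38.p6. Rose and fell refer to the authors' calls. edgeR on these factors called 2698 of 2700 tested genes (99.9%), a share fixed by the authors' selection.

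The 4 genes, the lists and the tests were chosen with earlier results of these data known. Named are the 4 genes, Sprr2a2, Lats1, listed members of the lists, and the 3 nearest profiles of each gene. Csta2 of the lists is not in the annotation. The motifs and the 75-base comparison were chosen after the data were seen; the latter covers annotated transcripts only. Alternatives were TMM and DESeq2 scaling, DESeq2 1.42.0, group-mean ratios, no low-count filter, a replicate block, summed copies and leaving out each library.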

Additional observations from a re-analysis of the deposited data

How the results depend on the processing

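All 4 genes kept their direction under every alternative. With TMM scaling, Sprr2a1 was at -1.29 and Sprr2a3 at -0.89 on the log2 scale, and with DESeq2 size factors from the listed genes at -1.24 and -0.84, with Krt4 at 2.06. These scalings shift all log2 fold changes up by 0.36 and 0.41. Summed with Sprr2a3, Sprr2a1 gave -1.28, and with all 3 copies summed, an alternative chosen after seeing the data, -1.29. Without 1 library in turn, log2 fold changes ranged from -1.88 (without WT replicate 1) to -1.38 (without WT replicate 2) for Sprr2a1, from -1.30 to -1.20 for Sprr2a3, from 2.66 to 3.91 for Dmkn and from 1.32 (without WT replicate 1) to 2.09 (without WT replicate 2) for Krt4. DESeq2's fit and the ratio of group means moved none of the 4 beyond replicate spread.

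edgeR called 2698 listed genes, 42.9% of them higher; TMM gave 1651 (70.1% higher) and DESeq2 size factors 1589. Without 1 library the count ranged from 5 (without Lats1/2 KO replicate 2) to 2454 (without WT replicate 1), and it was 1503 without Lats1/2 KO replicate 1; the cause was not tested. With the replicate block the count was 2535, and Sprr2a1, Sprr2a3, Dmkn and Krt4 were at -1.63, -1.25, 3.31 and 1.68. Replicate numbers do not pair the libraries by any label, and same-numbered libraries deviated with a correlation of -0.16 across genes. A crossed block, added after seeing the data, gave 2660 calls. With 2 libraries per group, spread is poorly estimated, and Krt4 rests on 25 to 162 reads per library.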

Other observations

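S100 proteins, small calcium-binding proteins many of whose genes lie in the chromosome region of the small proline-rich genes, have rows for 5 of 13 genes (38.5%, beside 20.6% of all tested genes). All 5 were lower, as were 57.1% of all listed genes. S100a14 had 7913 and 8693 normalized counts in the Lats1/2 KO libraries, against 15061 and 19012 in WT, a log2 fold change of -1.04 ± 0.17 (SE). S100a13 averaged 1962 ± 49.0 in Lats1/2 KO and 3719 ± 424 in WT (SD, n = 2). S100a6, S100a16 and S100a1 were lower by smaller amounts, with log2 fold changes of -0.66, -0.63 and -0.59. These 3 did not pass edgeR's test after TMM scaling, with adjusted p-values between 0.147 and 0.190. Over all listed genes that test called 494 lower, where 1543 are listed as lower. S100a8 and S100a9, which neutrophils and stressed keratinocytes express, have no rows.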
